A study of Homo sapiens with 4 samples.

Results

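Translation initiation factors, the proteins that bring a ribosome to the start codon of an mRNA, and the 4 kinases that switch initiation down by phosphorylating eIF2 were followed at the mRNA level in a pair of breast cancer cell lines treated with JPH203, an inhibitor of the amino acid transporter LAT1. The genes were taken by symbol, as those starting with EIF and a digit on probe sets whose annotation names 1 gene, without the EIF4EBP genes and without pseudogenes. This gave 51 of 19775 genes, named by 125 of 54675 probe sets. Of the 51, 47 code for protein, 4 are non-coding transcripts named after a neighbouring factor, and 1 of the protein-coding genes is Y-linked and is given no level, so levels are given for 46. Another 9 probe sets name an EIF factor together with other genes and were not used. EIF3C, EIF4A1 and EIF4A2 are covered mainly by probe sets of this kind.

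The experiment had 4 conditions with 1 Affymetrix U133 Plus 2.0 array each. MDA-MB-231 cells, from a triple negative breast cancer, were cultured with 100 μM JPH203 or with 100 μM of the vehicle Captisol as control for 24 h, and T-47D cells, from a ductal carcinoma with estrogen and progesterone receptors, were cultured with 100 μM JPH203 or with 100 μM Captisol for 24 h. The labels name no engineered allele and no other agent for the 4 cultures, and each line stands for a single tumor. No array was repeated, so no ratio below has an error, a replicate check or a p-value, and differences between single cultures cannot be told apart from effects of JPH203.

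The authors deposited linear signal intensities, in arbitrary units, scaled so that the trimmed mean of each array was close to 100. A gene was given the signal of its brightest probe set naming it alone. It was counted as measured where at least 1 of the arrays compared reached 100, and as past a fold threshold only where both did. Signals of different probe sets were not set against each other. Between 10831 and 11857 probe sets reached 100 on each array. The labels fitted the markers of the lines, since all 10 luminal markers were higher in the T-47D control and all 7 measured mesenchymal markers were higher in the MDA-MB-231 control. The 24 poly-A spike-in probe sets are for RNAs added to a sample as controls. The amounts added are not given in the sources used here, so equal addition cannot be checked. Their geometric mean signal between the controls, MDA-MB-231 over T-47D, was 0.307. With JPH203 over control it was 1.56 in T-47D cells and 0.927 in the MDA-MB-231 line. The ACTB signal at the 3′ end over that at the 5′ end was 1.72 with JPH203 and 1.39 in control T-47D cells, against 1.44 with JPH203 and 1.45 in control MDA-MB-231 cells. Scaling to the spike-ins divides every ratio of JPH203 over control by these values, so T-47D ratios between 1 and 1.56 fall below 1 and MDA-MB-231 ratios between 0.927 and 1 rise above it. The part of the ACTB difference in the T-47D ratios was not tested.

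Initiation proceeds in steps that the factors share out. eIF2 carries the initiator methionyl-tRNA with GTP, eIF1 and eIF1A keep the small ribosomal subunit open for scanning, eIF3 is the large scaffold on that subunit, the eIF4 factors bind and unwind the capped end of the mRNA, eIF5 triggers GTP hydrolysis on eIF2, and eIF5B joins the large subunit. eIF2B reloads eIF2 with GTP, and the kinases HRI, PKR, PERK and GCN2 block that reloading through phosphorylation of the eIF2 alpha subunit. GCN2 responds to uncharged tRNA, as in amino acid shortage, PERK to unfolded protein in the endoplasmic reticulum, PKR to double-stranded RNA and HRI to heme shortage and other stresses. The mRNAs of several initiation factors, like those of ribosomal proteins, start with a C and a run of pyrimidines (a 5′ TOP sequence), which puts their translation under the control of mTORC1 and LARP1.

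Promoter sequences of RefSeq were matched for 39 of the 46 genes (GRCh38.p14, 250 bases before and 50 after each annotated start). The windows that follow run from 40 bases before to 20 bases after the annotated start. They are shown because the T-47D ratios at the deposited scaling differed along this feature, as given further on. Capitals mark a TOP-like start, defined as a C within 3 bases of the annotated start followed by at least 4 pyrimidines. The first 4 genes have it and had a T-47D ratio of at least 1.46. The others are the genes past 1.5-fold with a matched promoter and no TOP-like start.
EIF3M, chr11:32583791-32583850, plus strand: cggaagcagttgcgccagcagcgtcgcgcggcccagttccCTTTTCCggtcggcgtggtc
EIF4B, chr12:53006416-53006475, plus strand: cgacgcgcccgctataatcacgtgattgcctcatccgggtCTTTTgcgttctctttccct
EIF4E2, chr2:232550649-232550708, plus strand: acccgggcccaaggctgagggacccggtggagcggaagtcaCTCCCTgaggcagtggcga
EIF2A, chr3:150546747-150546806, plus strand: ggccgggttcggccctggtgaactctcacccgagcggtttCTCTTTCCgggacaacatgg
EIF1, chr17:41688845-41688904, plus strand: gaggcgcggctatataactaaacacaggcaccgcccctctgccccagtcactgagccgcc
EIF3B, chr7:2354787-2354846, plus strand: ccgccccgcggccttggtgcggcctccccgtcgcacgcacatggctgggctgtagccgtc
EIF4G1, chr3:184314566-184314625, plus strand: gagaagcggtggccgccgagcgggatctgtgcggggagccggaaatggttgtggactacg
EIF5B, chr2:99337349-99337408, plus strand: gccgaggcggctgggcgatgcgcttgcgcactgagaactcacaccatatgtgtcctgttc
EIF2AK3, chr2:88627445-88627504, minus strand: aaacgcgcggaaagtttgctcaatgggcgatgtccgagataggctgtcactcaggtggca

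In MDA-MB-231 cells the initiation factor mRNAs stayed close to control with JPH203. Of the 43 genes measured, 0 were past 2-fold and 0 past 1.5-fold in either direction, where 0.0976% and 0.823% of the 7170 genes measured were. Their ratios of JPH203 over control ran from 0.784 for EIF2AK2 to 1.18 for EIF2AK3, inside the range of 0.761 to 1.37 that held 95% of all genes. The median log2 ratio was -0.08, against 0.00 over all genes. Signals were above control for 10 of the 43 (23.3%), against 48.8% of all genes. These small differences lay mostly on one side, and their direction over the whole family turned when the arrays were scaled to the spike-ins, which put the EIF median at 0.03 and the median of all genes at 0.11.

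T-47D cells gave a much wider spread in both directions. Of 42 genes measured, 2 were at least 2-fold lower (4.76%, against 2.11% of the 7338 genes measured) and 0 were 2-fold higher (1.95% of all genes). At 1.5-fold, 6 were higher (14.3%, against 10.1% of all genes) and 5 were lower (11.9%, against 11.9%). Ratios ran from 0.465 for EIF5B to 1.89 for EIF3E, where 95% of all genes lay between 0.464 and 2.06, so the factors moved no further than genes at large. The median log2 ratio was 0.14, against -0.05 over all genes, and 27 of the 42 (64.3%) were above control, against 46.3% of all genes. Scaling to the spike-ins put the median of all genes at -0.70 and that of the factors at -0.50, below control. It shifts every log2 ratio by the same amount, so it cannot change the distance of 0.19 between the medians. That distance shrank to 0.06 after quantile normalization and to 0.05 after loess on signal. Over all genes the split of 143 higher and 155 lower at 2-fold also moved with the scaling, to 192 and 120 after median centring, 173 and 114 after loess on signal, 187 and 76 without the trend on gene length, and 19 and 1671 with the spike-ins.

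**Figure D1:**
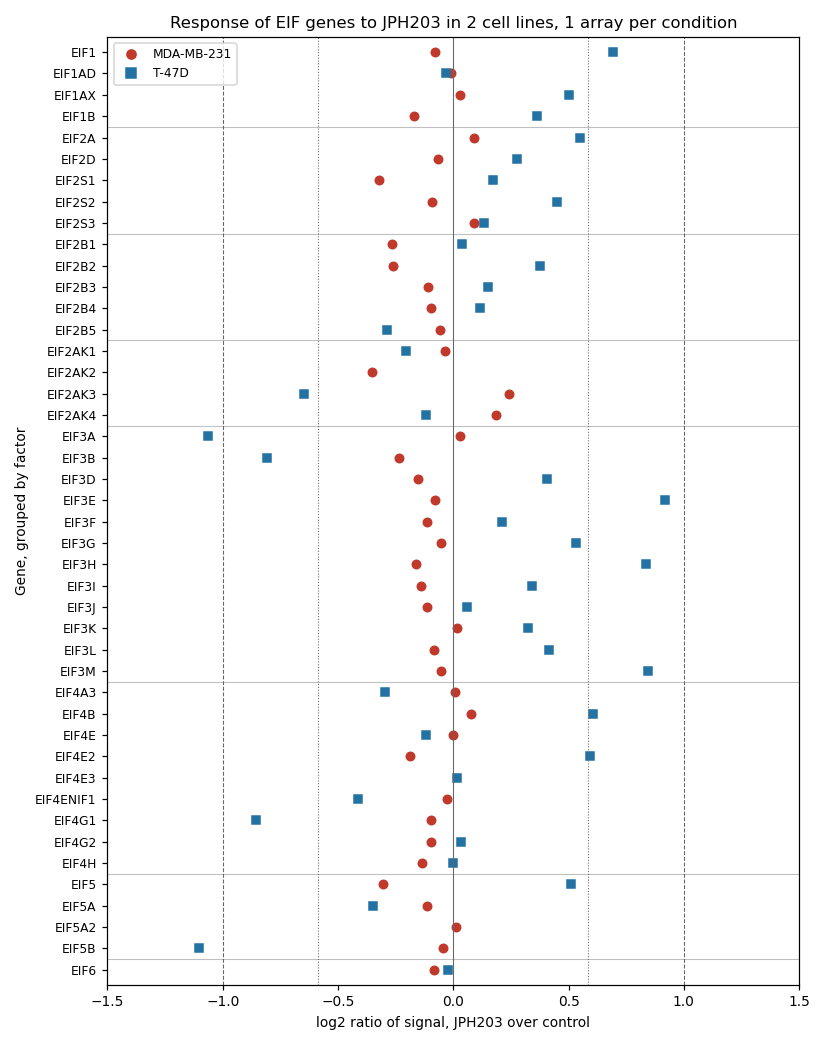
Log2 ratio of the JPH203 signal to the control signal for each measured EIF gene, grouped by factor, with circles for MDA-MB-231 and squares for T-47D cells, 1 array per condition and so no error bars; dotted lines mark 1.5-fold and dashed lines 2-fold. The circles lie at ratios of 0.784 to 1.18 and the squares at 0.465 to 1.89, with EIF3A and EIF5B past the lower 2-fold line; scaling to the spike-ins would move all squares down.

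The scanning factor EIF1, which guards start codon choice, was one of the genes past 1.5-fold in T-47D cells. Its signal was 15821 with JPH203 against 9790.2 in control T-47D cells (ratio 1.62), and 6964 with JPH203 against 7366 in control MDA-MB-231 cells (0.945). The 4 EIF1 probe sets that reached 100 on both T-47D arrays gave ratios of 1.48 to 1.62, so they pointed the same way, although 3 of them are of the type whose probes can also bind other transcripts. EIF1AX, the X-linked gene of the partner factor eIF1A, had signals of 1489 with JPH203 and 1052 in control T-47D cells (1.42), and 2554 with JPH203 and 2499.8 in control MDA-MB-231 cells (1.02). Its 4 bright probe sets gave 0.973 to 1.77 in T-47D cells, 3 above control and 1 below. EIF1B, a close paralog of EIF1, had 1308 with JPH203 and 1017 in control T-47D cells (1.29), and 1174 with JPH203 and 1321 in control MDA-MB-231 cells (0.889). EIF1AD was at 418.7 with JPH203 and 427.7 in control T-47D cells (0.979) and at 376.7 with JPH203 and 378.9 in control MDA-MB-231 cells (0.994), and its second probe set gave 1.30 in T-47D and 1.03 in MDA-MB-231 cells.

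By their brightest probe sets, the eIF2 subunits and the related single-chain factors lay slightly above control in T-47D cells for 5 of 5 genes (1.10 to 1.46). Of all genes measured, 46.3% were above control. The 5 include EIF2S1, whose probe sets disagreed. The median log2 ratio of the 5 was 0.27, which turned to -0.37 after scaling to the spike-ins. In MDA-MB-231 cells 2 were above and 3 below control. EIF2S1, which encodes the alpha subunit that the kinases phosphorylate, had signals of 1602 with JPH203 and 1420.1 in control T-47D cells (1.13), and 1994 with JPH203 and 2491 in control MDA-MB-231 cells (0.800). No direction can be given for EIF2S1, because its probe sets disagreed in each line. The other 2 gave ratios of 0.846 and 0.826 in T-47D cells, and of 0.957 and 1.15 in MDA-MB-231 cells. EIF2S2, the beta subunit, had 2309 with JPH203 and 1691 in control T-47D cells (1.37), and 2685 with JPH203 and 2864 in control MDA-MB-231 cells (0.938). EIF2S3, the gamma subunit that binds GTP and tRNA, had 1880.3 with JPH203 and 1712 in control T-47D cells (1.10), and 1788 with JPH203 and 1678 in control MDA-MB-231 cells (1.07). All 3 of its probe sets were above control in T-47D cells, up to 1.57. EIF2A, a factor apart from eIF2 that can deliver initiator tRNA without it, had 1524 with JPH203 and 1040.1 in control T-47D cells (1.46), and 1164 with JPH203 and 1093 in control MDA-MB-231 cells (1.07). EIF2D, also linked to tRNA delivery and to ribosome recycling, had 1153 with JPH203 and 953.4 in control T-47D cells (1.21), and 520.4 with JPH203 and 545.2 in control MDA-MB-231 cells (0.955).

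The eIF2B genes, which encode the exchange factor that phosphorylated eIF2 blocks, were little different from control with JPH203. In MDA-MB-231 cells all 5 lay below control, by small margins (0.831 to 0.960). In T-47D cells 4 of 5 lay above control by their brightest probe sets, where 46.3% of all genes did. EIF2B2 was highest, at 1417 with JPH203 against 1092 in control (1.30). EIF2B1 (1.03) and EIF2B4 (1.08) were close to control, and a second bright EIF2B4 probe set gave 0.926. EIF2B5, the catalytic subunit, was lower at 637.1 with JPH203 against 777 in control (0.820). The T-47D median of 0.12 (log2) turned to -0.53 after scaling to the spike-ins.

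None of the 4 kinases had a higher T-47D signal with JPH203, and only PERK was past 1.5-fold. EIF2AK3 (PERK) had signals of 143.6 with JPH203 and 225.1 in control T-47D cells (0.638), and 242.7 with JPH203 and 205.3 in control MDA-MB-231 cells (1.18), so the lines lay on opposite sides of control. Its second probe set was below 100 on every array, and the T-47D ratio was within 1.5-fold after quantile normalization (0.702), after loess on signal (0.711) and after removal of the trend on gene length (0.744). EIF2AK4 (GCN2), the sensor of amino acid shortage, had 156.2 with JPH203 and 169.6 in control T-47D cells (0.921), and 446.5 with JPH203 and 392.4 in control MDA-MB-231 cells (1.14). The MDA-MB-231 direction of EIF2AK4 depended on the probe set, since its second one gave 116.6 with JPH203 against 155.6 in control (0.749). EIF2AK1 (HRI) had 926.3 with JPH203 and 1067 in control T-47D cells (0.869), and 394.2 with JPH203 and 404.4 in control MDA-MB-231 cells (0.975). EIF2AK2 (PKR) was below 100 on both T-47D arrays, at 43.4 with JPH203 and 58.7 in control, and had 240.9 with JPH203 and 307.4 in control MDA-MB-231 cells (0.784). The mRNA level of a kinase does not measure its activity, which the arrays did not record.

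The genes of the eIF3 complex lay on both sides of control in T-47D cells. Of 12 measured, 10 were above control, against 46.3% of all genes. The median log2 ratio was 0.37. It was 0.10 after quantile normalization, 0.11 after loess on signal and -0.27 after scaling to the spike-ins. EIF3A and EIF3B, which encode the largest subunit and an RNA-binding core subunit, were the only 2 below. EIF3E had signals of 7432 with JPH203 and 3932 in control T-47D cells (1.89), and 4258 with JPH203 and 4503 in control MDA-MB-231 cells (0.945). EIF3M had 6345 with JPH203 and 3529 in control T-47D cells (1.80), and 3457 with JPH203 and 3588 in control MDA-MB-231 cells (0.964). EIF3H had 6549.5 with JPH203 and 3674 in control T-47D cells (1.78), and 2429 with JPH203 and 2719 in control MDA-MB-231 cells (0.893). EIF3E, EIF3H and EIF3M belong, with EIF3F, EIF3K and EIF3L, to the PCI and MPN domain subunits. These form the body of the complex around eIF3a and eIF3c. At the deposited scaling all 6 were above control in T-47D cells (1.16 to 1.89). After quantile normalization the highest of them were closer to control, with 1.43 for EIF3E, 1.37 for EIF3M and 1.37 for EIF3H. The 2 bright probe sets of EIF3M gave 1.80 and 1.86.

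EIF3A, whose protein nucleates the complex, had signals of 489.5 with JPH203 and 1024 in control T-47D cells (0.478), and 2761 with JPH203 and 2705 in control MDA-MB-231 cells (1.02). A second EIF3A probe set gave 128.9 with JPH203 and 330.7 in control T-47D cells (0.390), and the dimmest gave 32.8 with JPH203 and 83.0 in control, so all 3 were lower with JPH203. EIF3B had 753.6 with JPH203 and 1319.6 in control T-47D cells (0.571), and 1176 with JPH203 and 1384 in control MDA-MB-231 cells (0.850). The other bright probe sets of EIF3B gave 0.695 and 0.650 in T-47D cells, while 2 of 3 dim ones, below 100, were higher with JPH203. The T-47D ratio of EIF3B was therefore 1.18 when all its probe sets were averaged. The other eIF3 genes measured in T-47D cells, EIF3D, EIF3F, EIF3G, EIF3I, EIF3J, EIF3K and EIF3L, had ratios of 1.04 to 1.45. A second EIF3J probe set, above 100 on both arrays, gave 0.859 there. In MDA-MB-231 cells all 12 eIF3 genes had ratios of 0.850 to 1.02. EIF3C was below 100 on every array on the 1 probe set naming it alone, which does not show that the gene was little expressed. Of the 4 non-coding transcripts, 3 were below 100 on all arrays, and EIF3J-DT, which starts next to EIF3J, had 173.2 with JPH203 and 138.1 in control T-47D cells.

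**Figure D2:**
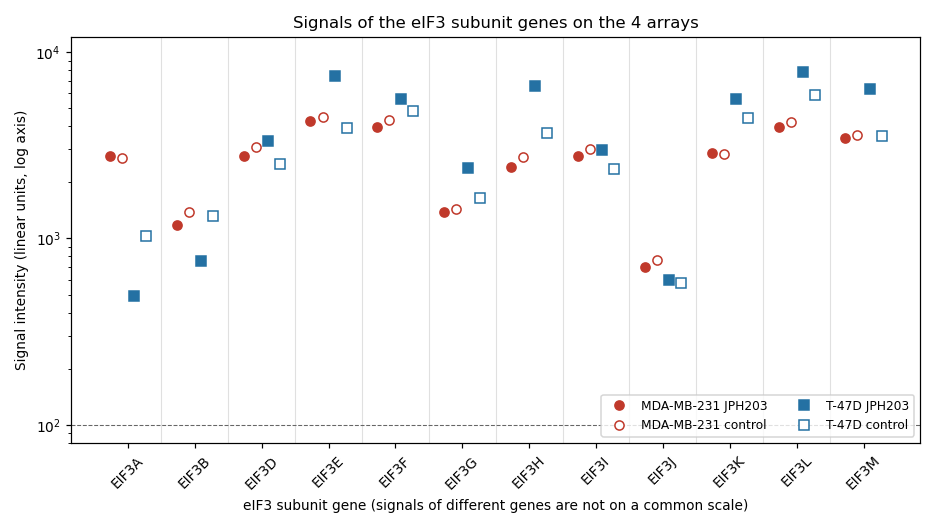
Signal intensity of each measured eIF3 subunit gene on the 4 arrays (log axis, arbitrary linear units), with filled symbols for JPH203 and open symbols for control, circles for MDA-MB-231 and squares for T-47D cells; the dashed line marks the minimum of 100. In T-47D cells EIF3E lies at 7432 with JPH203 against 3932 in control and EIF3A at 489.5 against 1024, while the MDA-MB-231 circles of each gene lie close together; the filled squares would lie lower after scaling to the spike-ins.

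Among the eIF4 factors, which act at the mRNA cap, T-47D signals lay on both sides of control (4 above and 5 below, median log2 ratio 0.00). EIF4B, a helper of the eIF4A helicase, had signals of 4557.5 with JPH203 and 2996 in control T-47D cells (1.52), and 518.1 with JPH203 and 491.8 in control MDA-MB-231 cells (1.05). EIF4E2, a cap-binding relative of eIF4E that takes part in translational repression, had 1229 with JPH203 and 815.9 in control T-47D cells (1.51), and 454.2 with JPH203 and 517.4 in control MDA-MB-231 cells (0.878). A second bright probe set of each was also above control in T-47D cells, with 1.38 for EIF4B and 1.59 for EIF4E2, but that of EIF4E2 was also above control in MDA-MB-231 cells (1.09). After scaling to the spike-ins the T-47D ratios of the brightest probe sets were 0.974 for EIF4B and 0.964 for EIF4E2. EIF4G1, the scaffold between the cap-binding protein and eIF3, was lower, with 837.7 with JPH203 and 1514 in control T-47D cells (0.553), and 925.1 with JPH203 and 988.1 in control MDA-MB-231 cells (0.936). Both EIF4G1 probe sets gave nearly the same T-47D ratio, the second being 0.562. Its relative EIF4G2, which lacks the eIF4E binding site, had 4437 with JPH203 and 4333.5 in control T-47D cells (1.02), and 4029.6 with JPH203 and 4313 in control MDA-MB-231 cells (0.934). EIF4E itself, the cap-binding protein, had 443.6 with JPH203 and 480.9 in control T-47D cells (0.922), and 941.1 with JPH203 and 942.2 in control MDA-MB-231 cells (0.999). Its other bright probe sets were lower with JPH203 in both lines, down to 0.767 in T-47D and 0.720 in MDA-MB-231 cells. Its other relative EIF4E3 was 111.9 with JPH203 and 110.6 in control T-47D cells (1.01) and below 100 in MDA-MB-231 cells, at 25.4 with JPH203 and 28.4 in control. EIF4A3, EIF4H and EIF4ENIF1 had T-47D ratios of 0.751 to 0.999. EIF4A2 was below 100 on every array on the probe set naming it alone, which does not show that the gene was little expressed. EIF4A1 has no probe set naming it alone, so the eIF4 counts leave it out.

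For the late steps, EIF5B, the GTPase of subunit joining, had the lowest T-47D ratio of all the factors. Its signals were 152.6 with JPH203 and 327.9 in control T-47D cells (0.465), and 1137 with JPH203 and 1174 in control MDA-MB-231 cells (0.969). The T-47D signals of its other 5 probe sets were all lower with JPH203, but each had at least 1 array below 100, the brightest at 47.8 with JPH203 against 109.9 in control. EIF5 had 1219.8 with JPH203 and 855.1 in control T-47D cells (1.43), and 906.5 with JPH203 and 1121 in control MDA-MB-231 cells (0.808). The 4 bright EIF5 probe sets went one way within each line, with 1.16 to 1.91 in T-47D and 0.794 to 0.856 in MDA-MB-231 cells. EIF5A, which helps the ribosome through proline-rich stretches and carries the amino acid hypusine, had 1073 with JPH203 and 1365 in control T-47D cells (0.786), and 1615 with JPH203 and 1748 in control MDA-MB-231 cells (0.924). Its paralog EIF5A2 was at 12.3 with JPH203 and 15.7 in control T-47D cells, below 100, and at 181.7 with JPH203 and 180.4 in control MDA-MB-231 cells (1.01). EIF6, which keeps the ribosomal subunits apart, had ratios of 0.986 in T-47D and 0.942 in MDA-MB-231 cells.

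How far the other probe sets of a gene went the same way differed between the lines. Of the genes with at least 2 probe sets reaching 100 on both arrays, all such probe sets pointed one way for 12 of 17 in T-47D cells and for 11 of 20 in MDA-MB-231 cells.

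**Figure D3:**
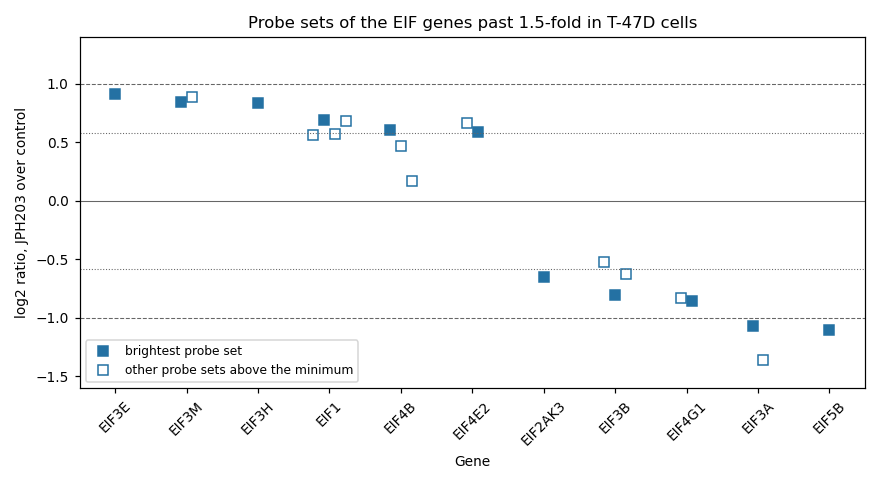
Log2 ratio of the JPH203 signal to the control signal in T-47D cells for the probe sets of the EIF genes past 1.5-fold that reached 100 on both arrays, with filled squares for the brightest probe set of a gene and open squares for the others; dotted lines mark 1.5-fold and dashed lines 2-fold. The probe sets of each gene lie on one side of control, as for EIF3A at ratios of 0.478 and 0.390 and EIF4B at 1.52, 1.38 and 1.13; dimmer probe sets are not drawn, and scaling to the spike-ins would move all points down.

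The size of the T-47D ratios depended on how the arrays were brought to one scale. After quantile normalization the 6 genes above 1.5-fold had ratios of 1.13 (EIF1) to 1.43 (EIF3E), and after loess on signal 1.14 (EIF1) to 1.48 (EIF3E), so 0 of 6 stayed past 1.5-fold. The 4 lower genes EIF3A, EIF3B, EIF4G1 and EIF5B stayed past it, with 0.503 to 0.576 after quantile normalization and 0.481 to 0.554 after loess. Gene length moved with the T-47D response over all genes, with a median of 16.9 kb for the 744 genes at least 1.5-fold higher and 58.1 kb for the 875 at least 1.5-fold lower. The initiation factors past 1.5-fold showed a smaller gap, 34.4 kb for the 6 higher (3.78 to 124.2 kb) and 47.1 kb for the 5 lower (20.8 to 71.4 kb). EIF3H, the longest of these genes at 124.2 kb, was among the higher ones, and EIF4G1, at 20.8 kb, among the lower. EIF1, the shortest at 3.78 kb, was also among the higher ones, and EIF2AK3, at 71.4 kb, among the lower. The part of gene length in these ratios was not tested. With the trend on gene length removed, EIF3A had a T-47D ratio of 0.520 and EIF5B of 0.532, while EIF3E had 2.06 and EIF3H 2.25.

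The genes with a TOP-like start lay on one side in T-47D cells. A TOP-like start was found in 12 of the 39 matched EIF promoters (30.8%), against 13.5% of 15843 protein-coding promoters of the same length. Of these 12 genes, 11 were measured in T-47D cells and 11 of 11 had a higher signal with JPH203, with ratios of 1.02 to 1.80 and a median of 1.25. They were EIF2A, EIF2D, EIF2S3, EIF3D, EIF3F, EIF3J, EIF3K, EIF3M, EIF4B, EIF4E2 and EIF4G2. Of the 24 measured genes without one, 11 were higher and 13 lower, with ratios of 0.465 to 1.62 and a median of 0.992. The 11 of 11 depended on the scaling: 7 were higher after quantile normalization, 7 after loess on signal and 1 with the spike-ins. Of the 24 without a TOP-like start, 13, 13 and 1 were higher under these scalings. The median log2 ratio lay above that of the 24 by 0.33 as deposited, 0.19 after quantile normalization and 0.15 after loess. Spike-in scaling leaves this distance at 0.33 by construction. Over all genes the same split was small: 493 of 927 genes with a TOP-like start were higher (53.2%, median ratio 1.03), and 2305 of 5148 without one (44.8%, median ratio 0.953). In MDA-MB-231 cells 4 of 11 EIF genes with a TOP-like start were higher (median ratio 0.955) and 5 of 25 without (0.936). This grouping was chosen after the values had been seen, has no test, and rests on annotated starts, which need not be the starts used in these cells.

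**Figure D4:**
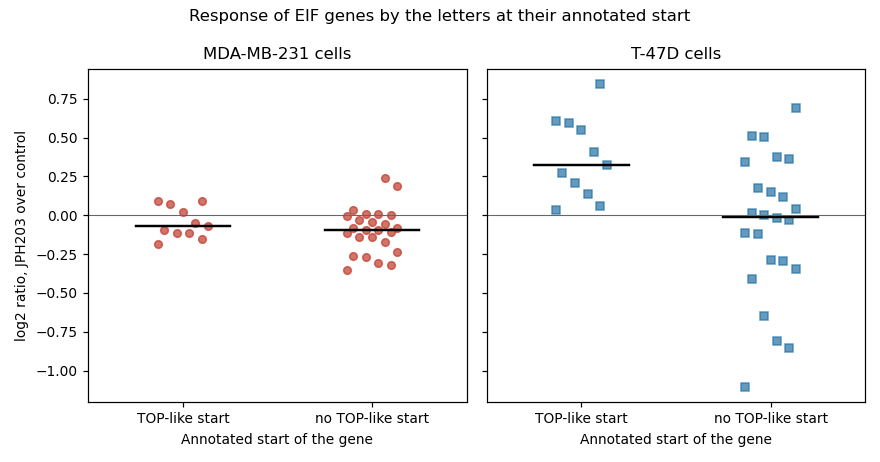
Ratio of the JPH203 signal to the control signal (log2 scale) for measured EIF genes with and without a TOP-like start at the RefSeq start, in each cell line, 1 point per gene, lines at the medians. In T-47D cells the 11 genes with a TOP-like start lie between 1.02 and 1.80 and the 24 without between 0.465 and 1.62; after scaling to the spike-ins all of the 11 but EIF3M lie below 1.

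A pair of other promoter motifs was searched on both strands. The C/EBP-ATF response element TGATGCAA, the letters to which ATF4 dimers bind, was in 0 of 39 EIF promoters and in 0.669% of all. The ETS motif CCGGAAGT was in 8 of 39 (20.5%), against 6.19% of all promoters. On its other strand the ETS motif holds the letters CTTCC, so a copy at the annotated start can also count as a TOP-like start. A match describes letters and not binding.

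Other regulators of translation also lay on both sides of control in T-47D cells. Of 28 genes listed for translation control beside the factors, 24 were measured in each line, and 0 were past 1.5-fold in MDA-MB-231 cells while 2 were higher and 4 lower in T-47D cells, against 0.823% of all genes in MDA-MB-231 cells, and 10.1% higher and 11.9% lower in T-47D cells. EIF4EBP1, the mTORC1 target that sequesters eIF4E, had signals of 1479 with JPH203 and 716.4 in control T-47D cells (2.06), and 747.3 with JPH203 and 512 in control MDA-MB-231 cells (1.46). IMPACT, an inhibitor of GCN2, had 196.6 with JPH203 and 129.9 in control T-47D cells (1.51). GCN1, the ribosome-bound activator of GCN2, was lower, with 457.2 with JPH203 and 773.6 in control T-47D cells (0.591). LARP1, which binds TOP mRNAs, had 1030.0 with JPH203 and 1868 in control T-47D cells (0.551). EIF4EBP2, the sister of EIF4EBP1, had 124.6 with JPH203 and 217 in control (0.574), and the helicase gene DDX3X had 835 with JPH203 and 1479 in control (0.565). Thus at the deposited scaling the inhibitor and the activator of GCN2 differed in direction, as did the 4E-BP paralogs. Scaling to the spike-ins divides the T-47D ratios by 1.56, which would put IMPACT below control like GCN1. The eIF2 phosphatase subunit PPP1R15B had 304 with JPH203 and 422 in control T-47D cells (0.720), and PPP1R15A was below 100 in that line, at 58.1 with JPH203 and 48.6 in control. Of 9 measured genes of elongation and termination, 0 were past 1.5-fold in either line, where the same shares of all genes hold. ATF4, the transcription factor whose translation rises when eIF2 is phosphorylated, had 5593 with JPH203 and 1676 in control T-47D cells and 1357 with JPH203 and 1466 in control MDA-MB-231 cells.

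Between the control arrays, the lines differed in a subset of the factors. Of 44 genes measured on at least 1 control array, 5 were past 2-fold toward MDA-MB-231 cells (11.4%, against 11.2% of 8294 genes) and 3 past 2-fold toward T-47D cells (6.82%, against 11.0%). The median log2 ratio of MDA-MB-231 over T-47D was 0.01, against 0.00 over all genes, and scaling to the spike-ins raised both, to 1.71 and 1.70, and turned the 929 genes past 2-fold toward MDA-MB-231 and 914 toward T-47D cells into 4361 and 53. Directions between the lines therefore hold for the scaling as deposited.

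The genes higher in MDA-MB-231 cells included the factors that were lowest with JPH203 in T-47D cells. EIF5B had signals of 1174 in the MDA-MB-231 control and 327.9 in the T-47D control (3.58), and EIF3A had 2705 in MDA-MB-231 against 1024 in T-47D (2.64). EIF1AX had 2499.8 in MDA-MB-231 against 1052 in T-47D (2.38). EIF2AK4 (GCN2) had 392.4 in MDA-MB-231 against 169.6 in T-47D (2.31), and EIF2B3, a subunit of eIF2B, had 678.9 in MDA-MB-231 against 306.3 in T-47D (2.22). With the trend on gene length removed, EIF2AK4 (1.74) and EIF2B3 (1.63) were no longer past 2-fold. Another pair reached 100 in the MDA-MB-231 control alone: EIF5A2 had 180.4 there against 15.7 in the T-47D control, and EIF2AK2 (PKR) had 307.4 there against 58.7 in the T-47D control. This comparison and that of JPH203 in T-47D cells share the T-47D control array, so their ratios are not independent.

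On the T-47D side the widest gap was that of EIF4B, with 491.8 in the MDA-MB-231 control and 2996 in the T-47D control (0.164), and a second probe set gave 530.6 in MDA-MB-231 against 1266 in T-47D (0.419). EIF2AK1 (HRI) had 404.4 in MDA-MB-231 against 1067 in T-47D (0.379), and EIF2B5 had 364.9 in MDA-MB-231 against 777 in T-47D (0.470). EIF2B5 was no longer past 2-fold without the trend on gene length (0.580), and both turned above 1 after scaling to the spike-ins, with 1.23 for EIF2AK1 and 1.53 for EIF2B5. EIF4E3 reached 100 in the T-47D control alone, at 28.4 in the MDA-MB-231 control and 110.6 in the T-47D control. Thus GCN2 and PKR had the higher signal in MDA-MB-231 cells, HRI in T-47D cells, and EIF2AK3 (PERK) had 205.3 in MDA-MB-231 against 225.1 in T-47D (0.912). By group, the 4 eIF5 genes all leaned toward MDA-MB-231 cells (1.28 to 11.5, the last against a T-47D signal below 100), while 7 of 9 eIF4 genes leaned toward T-47D cells (median log2 ratio -0.62), a direction that turned to 1.09 after scaling to the spike-ins. Of the genes with at least 2 bright probe sets, all pointed the same way for 15 of 18.

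**Figure D5:**
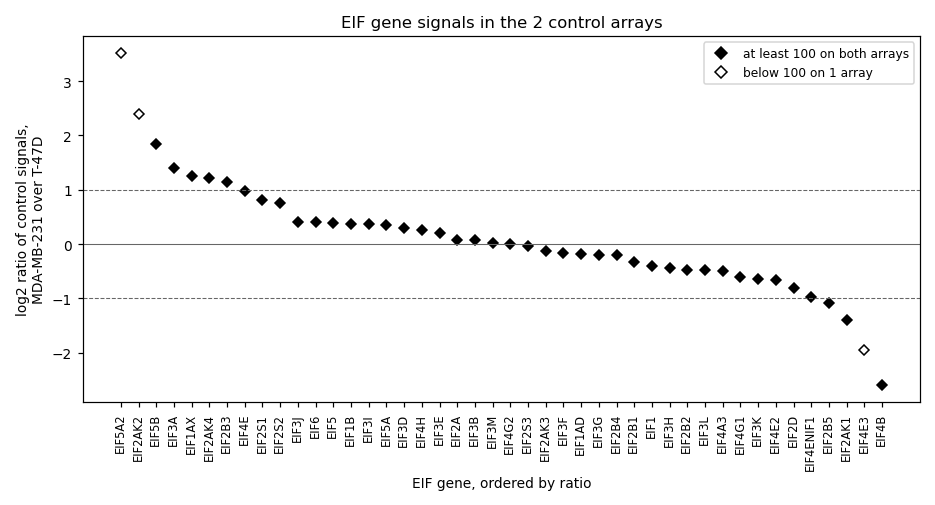
Log2 ratio of the MDA-MB-231 control signal to the T-47D control signal for each measured EIF gene, ordered by ratio, 1 array each; filled symbols reached 100 on both arrays, open symbols on 1, and dashed lines mark 2-fold. EIF4B lies lowest, at 491.8 in the MDA-MB-231 control and 2996 in the T-47D control, and EIF5B is the highest of the filled symbols at a ratio of 3.58; scaling to the spike-ins would move all points up.

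Set against genes of similar signal on the same pair of arrays (within 0.5 on the log2 scale), nearly all ratios were ordinary. Outside the range holding 95% of such genes lay EIF2S1 in MDA-MB-231 cells (0.800, range 0.832 to 1.20), EIF3A (0.478, range 0.483 to 2.06) and EIF5B (0.465, range 0.470 to 1.91) in T-47D cells, and EIF4B between the controls (0.164, range 0.178 to 4.46). The EIF2S1 value is that of its brightest probe set alone, and its other probe sets gave 0.957 and 1.15 in MDA-MB-231 cells.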

How the data were processed

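RNA of 4 cultures (MDA-MB-231 and T-47D cells, each with JPH203 or Captisol, 1 per condition) was hybridised to Affymetrix U133 Plus 2.0 arrays. The authors deposited signal intensity values per probe set on a linear scale. GCOS is named in the submitters' processing notes. Its version is not given in the sources used here. Each array appears scaled on its own to a trimmed mean of 100 (lowest and highest 2% left out). Such scaling keeps intensity-dependent differences between arrays. Genes came from the platform annotation (41097 of 54675 probe sets name 1 gene, 41043 of them matched by gene identifier to RefSeq, GRCh38.p14). A ratio divides the JPH203 signal by the control signal of the same line, or MDA-MB-231 by T-47D between controls. The methods' 2-fold threshold was used with a minimum signal of 100, and 1.5-fold beside it. No test was possible with 1 array per condition, and the number of arrays limits the precision. The count procedure was tested on simulated data.

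Every measured factor may be named. Per-array signals are given for genes past 1.5-fold with JPH203 or 2-fold between controls, eIF2 subunits, eIF2 kinases and their paralogs; a few others (EIF1AD, EIF2A, EIF2D, EIF2B2, EIF4E, EIF4G2, EIF5, EIF5A, EIF3J-DT, PPP1R15A, PPP1R15B, ATF4) were added after their values were seen. Members and lists were chosen with earlier results of these data known. Alternatives were median centring, quantile normalization, loess (span 0.4), spike-in scaling, removal of a gene length trend, a pseudocount of 16, minimum signals of 50 and 200 or on both arrays, thresholds of 1.5-fold or 3-fold, and the mean of all probe sets, the brightest one over the arrays compared, or no _x_at and _s_at ones. Calculations used Python 3.11.15 with pandas 2.3.3, numpy 2.4.6 and statsmodels 0.14.6, and matplotlib 3.10.9 drew the plots.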

Additional observations from a re-analysis of the deposited data

Results flagged for a closer look

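At the deposited scaling, some factors were past 1.5-fold in T-47D cells and had their MDA-MB-231 signal on the other side of control. The share of all genes that meet this rule was not counted, so the list is not read as a trait of the factors. In MDA-MB-231 cells 33 of the 43 measured factors lay below control, so a factor higher in T-47D cells often meets the rule by a small margin. The log2 response in MDA-MB-231 minus that in T-47D cells was 1.09 for EIF3A and 0.89 for EIF2AK3, which were below control in T-47D cells and above it in MDA-MB-231 cells by their brightest probe sets. It was -0.999 for EIF3E, -0.997 for EIF3H, -0.90 for EIF3M, -0.78 for EIF4E2 and -0.77 for EIF1, which were above control in T-47D cells and below it in MDA-MB-231 cells by theirs. A second EIF4E2 probe set was above control in MDA-MB-231 cells too (1.09). Several of these opposite directions depended on the scaling. With the spike-ins, MDA-MB-231 ratios between 0.927 and 1 rise above control, as those of EIF1 (0.945), EIF3E (0.945) and EIF3M (0.964) do. Their T-47D ratios then stay above control, at 1.03, 1.21 and 1.15. EIF4E2 then falls below control in T-47D cells as well (0.964). With 1 array per condition these differences were not tested, and the MDA-MB-231 ratios of all the genes listed lay between 0.878 and 1.18.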

How the results depend on the processing

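In MDA-MB-231 cells the count of factors past 2-fold was 0 under every alternative run, and their median log2 ratio of -0.08 turned to 0.028 with spike-in scaling alone (-0.10 to -0.05 otherwise). In T-47D cells the count of 2 past 2-fold was 6 with spike-in scaling (all lower), 1 after loess, 1 with a minimum of 200, 1 with the mean of probe sets, 0 after quantile normalization, 0 without the _x_at and _s_at probe sets, 11 at 1.5-fold and 0 at 3-fold. Without the _x_at and _s_at probe sets EIF3A (0.395) and EIF5B (0.458) kept low ratios, but on signals below 100. Removing the gene length trend left 2, EIF3E (2.06) and EIF3H (2.25), both higher, in place of EIF3A and EIF5B. The T-47D median of 0.14 became 0.042 after quantile normalization, -0.50 with spike-in scaling, 0.26 with the mean of probe sets and 0.24 without those probe sets. Between the controls the count of 8 became 36 with spike-in scaling, 4 without those probe sets, 16 at 1.5-fold and 2 at 3-fold, and the median of 0.01 became 0.16 after quantile normalization, 0.12 after loess, 1.71 with spike-in scaling, 0.22 without the gene length trend and 0.22 with the mean of probe sets.

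The count of factors with a TOP-like start above control, recomputed after the values were seen, was 11 of 11 in T-47D cells. It became 7 after quantile normalization, 7 after loess, 1 with spike-in scaling and 10 with the gene length trend removed. It was 8 of 9 with the mean of probe sets and 6 of 6 without the _x_at and _s_at probe sets. In MDA-MB-231 cells it was 4 and became 7 with spike-in scaling. Group medians were counted as changing sign where both values lay at least 0.1 from 0. In T-47D cells these were eIF1 (-0.21), eIF2 (-0.37), eIF2B (-0.53) and eIF3 (-0.27) with spike-in scaling, and eIF5 with the mean of probe sets (0.20). Between the controls they were eIF2B (1.37) and eIF4 (1.09) with spike-in scaling and the kinases with the minimum on both arrays (-0.13). In MDA-MB-231 cells no group met this rule. There the medians of all groups below control turned slightly positive with spike-in scaling, eIF1 most (0.07). The kinase median turned from 0.07 to -0.21 without the _x_at and _s_at probe sets. Over all comparisons, 55 other group medians moved by more than 0.1 and 188 stayed within 0.1. Single-gene ratios were followed for genes past their threshold with both signals at least 100. For these genes a lower minimum signal and the minimum on both arrays could not give another outcome, so they test nothing. The brightest probe set over the arrays compared returned the same ratios. With these outcomes counted in, 175 single-gene ratios over all alternatives stayed past their threshold, 44 did not and 7 crossed 1. The 44 include ratios still past the fold where a signal fell below 100. Examples without the _x_at and _s_at probe sets in T-47D cells are EIF3A (0.395) and EIF3E (2.01). The 7 that crossed 1 include EIF3B in T-47D cells with the mean of probe sets (1.18) and without the _x_at and _s_at ones (1.73). EIF4E2 crossed 1 there without them (0.861). With spike-in scaling it was EIF4B (0.974) and EIF4E2 (0.964) in T-47D cells and EIF2AK1 (1.23) and EIF2B5 (1.53) between the controls. Spike-in scaling multiplies every ratio of a comparison by 1 constant; for the other changes the cause was not tested. No paired analysis was possible because the 2 groups of a line share only 1 replicate number; a fit that takes the 2 lines as pairs was not run. Signals under 100, as for EIF2AK2 and EIF5A2 in T-47D cells, give no size of change.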
